A study of Mus musculus with 8 samples.

Results

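The miRNAs described here are 8 mature miRNAs that are typical of white blood cells. They are mmu-miR-142-3p and mmu-miR-142-5p, which leukocytes of all lineages share, mmu-miR-223 of myeloid cells, and mmu-miR-150 and mmu-miR-342-3p, grouped here as lymphoid. The others are mmu-miR-146a, mmu-miR-146b and mmu-miR-155, which inflammatory signals induce in cells of either lineage. All 8 were taken by exact name from the 566 mouse miRNAs on the array, and were among the 189 miRNAs measured above background. The tissue was brown adipose tissue of 6 male C57Bl6N mice, 8 weeks old. Mice 1, 2 and 3 had been kept at 8 °C for 24 h and mice 4, 5 and 6 at room temperature (21 °C), with no other treatment or allele in the labels. Trizol was used to extract total RNA, and each array took a single Cy3-labelled sample on an Agilent mouse miRNA design. Mouse 1 and mouse 4 were each measured on 2 arrays, which were averaged, so that n = 3 mice in each group.

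A miRNA is a short RNA that guides an Argonaute protein to messenger RNAs, mainly through its seed, the bases near its 5′ end. Brown fat is a tissue of heat-producing adipocytes that also holds vessels, nerves, connective tissue and resident macrophages and lymphocytes. miR-142 is a marker of blood-forming cells, miR-223 is abundant in neutrophils and other myeloid cells and restrains granulocyte production, and miR-150 is abundant in mature lymphocytes, where it targets the transcription factor Myb. miR-146a and miR-146b dampen signalling from Toll-like receptors through Irak1 and Traf6, and miR-155 is induced in activated macrophages and lymphocytes. In whole tissue, fewer cells of a type and less RNA per cell cannot be told apart.

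The mature sequences of 7 of the 8 miRNAs were found in RefSeq (mouse assembly GRCm38.p6), and they are shown because they say which of the 8 share a seed or nearly a whole sequence. They are written 5′ to 3′, with the seed (bases 2 to 8) in capitals.

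miR-142-3p: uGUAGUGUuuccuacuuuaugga

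miR-142-5p: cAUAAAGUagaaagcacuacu

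miR-223: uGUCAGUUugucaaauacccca

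miR-342-3p: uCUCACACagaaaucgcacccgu

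miR-146a: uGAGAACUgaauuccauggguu

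miR-146b: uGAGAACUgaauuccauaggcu

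miR-155: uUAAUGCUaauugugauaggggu

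These 7 sequences had 6 different seeds. miR-146a and miR-146b shared their seed, and 20 of their 22 bases were the same. The differences were G18A and U21C, counted from the 5′ end with the base of miR-146a first. Cross-hybridisation between them was not tested. miR-142-3p and miR-142-5p have different seeds but come from 1 hairpin, which RefSeq lists as the Mir142 gene with 64 bases. Its 2 arms are in capitals, the 5p arm first.

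Mir142 hairpin: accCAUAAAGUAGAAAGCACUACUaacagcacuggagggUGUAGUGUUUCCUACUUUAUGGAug

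In the RefSeq gene table, Mir342 lies inside Evl, Mir155 inside its host transcript Mir155hg, Mir223 inside F630028O10Rik and Mir146b inside Gm36493. Mir142 overlaps Mir142b, and no other gene spans Mir150 or Mir146, the gene of miR-146a. Coordinates are left out, since no genome build is named in the array files.

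The arrays lay on 1 slide. Cold mice filled 1 row of it and room temperature mice the other, and an effect of the row cannot be told apart from that of the group. The 75th percentile of signal used for scaling averaged 1085 ± 286 units over room temperature mice and 793 ± 149.7 units over cold mice (SD, n = 3; 2-sided exact permutation p = 0.2). The cold arrays had 182 ± 5 mouse miRNAs well above background and the room temperature arrays 209 ± 15.3 (SD, n = 3; 2-sided exact permutation p = 0.1, the lowest value possible with 3 mice a group). The number of arrays limits the precision of every value. All 5 brown fat miRNAs checked (miR-193b, miR-365, miR-378, miR-455 and miR-203) were measured on all 8 arrays. The 2 neural miRNAs (miR-124 and miR-9) and 4 epithelial ones (miR-200a, miR-200b, miR-200c and miR-141) were well above background on 0 arrays. Some markers of brown fat and of other tissues moved with the groups. Of the 5 brown fat miRNAs, 2 rose past the threshold used below and 0 fell, where 8.47% of all measured miRNAs rose. They were miR-193b at 0.64 and miR-378 at 0.97 (limma, adjusted p = 0.0129 and 0.0219). miR-203 at 0.42, miR-455 at 0.13 and miR-365 at −0.074 did not pass (limma, adjusted p = 0.140, 0.741 and 0.840). The 4 striated muscle miRNAs (miR-1, miR-133a, miR-133b and miR-206) had a median change of −1.92. Of these, 3 fell past the threshold used below, which 6.88% of all measured miRNAs did. miR-199a-3p and miR-214, of stromal cells, fell by 0.77 and 0.75. miR-199a-5p went the other way, by 0.68, and did not pass (limma, adjusted p = 0.169). The liver miRNA miR-122 was measured on room temperature arrays only. Their part in the values below was not tested.

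None of the leukocyte miRNAs changed past the threshold between cold and room temperature. A level is the log2 of intensity relative to the array's 75th percentile, and levels of different miRNAs cannot be set against each other. A change is the mean level in the cold less that at room temperature, with limma's SE, and the threshold is a Benjamini-Hochberg adjusted p of 0.05 over all 189 measured miRNAs. Past it were 0 of the 8 leukocyte miRNAs, against 29 of all 189 (15.3%), of which 13 (6.88%) were lower in the cold. With an unadjusted limma p under 0.05 there were 2 of the 8, miR-342-3p and miR-223, against 32.8% of all miRNAs. All 8 changes were negative, against 52.4% of all miRNAs. After quantile normalisation 7 of 8 were negative, with total signal or the first arrays 6 of 8, and with a normexp background 3 of 8. Both probes of miR-142-5p and the dimmer probes of miR-150 and miR-146a were kept through the room temperature arrays alone. The brighter probe of miR-146a was kept through the cold arrays alone. The count of negative changes is thus not independent of the filter. The median of the 8 changes was −0.35, and that of all measured miRNAs −0.022. For 7 of the 8 the groups overlapped mouse by mouse, whereas 38.6% of all measured miRNAs had groups that did not overlap. Only miR-342-3p had every cold mouse below every room temperature mouse, as 18.5% of all measured miRNAs did.

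**Figure D1:**
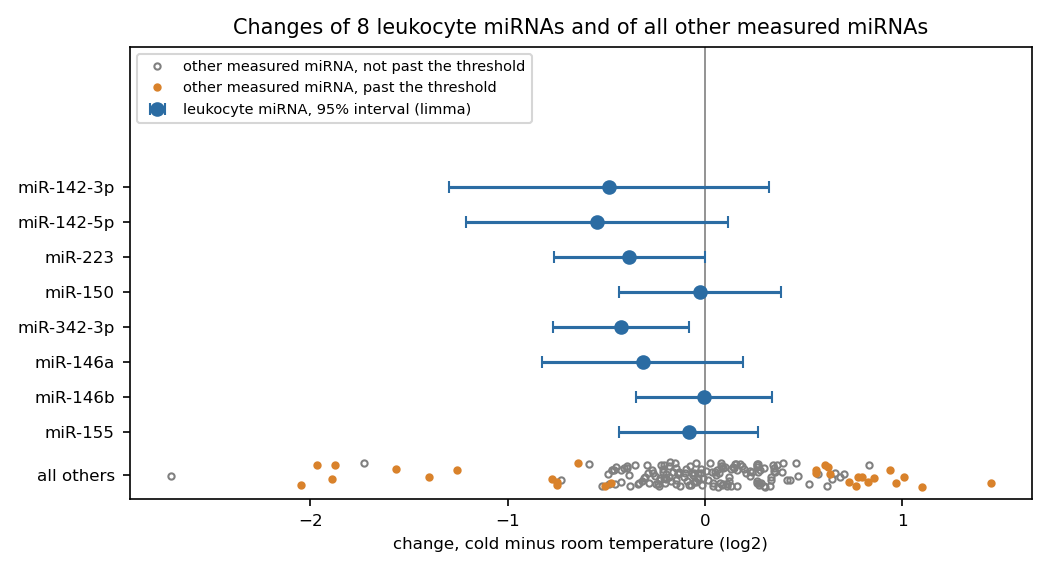
Change of each leukocyte miRNA, cold minus room temperature on the log2 scale (x axis), as limma's estimate with its 95% interval, above the changes of all other measured miRNAs, filled where past the threshold. The 8 estimates lie between −0.55 and −0.0036, within the bulk of the other miRNAs, and 2 of the 8 intervals do not reach 0.

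miR-142-3p and miR-142-5p, the pair shared by all leukocytes, had the most negative estimates and the widest intervals of the 8. The normalised log2 level of miR-142-3p was −2.37, −0.94 and −1.07 in cold mice 1, 2 and 3, and −0.88, −1.03 and −0.998 in room temperature mice 4, 5 and 6. Cold mouse 2 lay among the room temperature mice and cold mouse 3 just below them, and mouse 1 lay far below all others. The change was −0.48 ± 0.349 (SE, n = 3 mice a group; 95% interval −1.30 to 0.33; limma, adjusted p = 0.375), and without mouse 1 it was −0.03. On the 2 arrays of mouse 1 the level was −1.98 and −2.75, both below every array of the other mice.

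The 5p arm had the same outlying mouse. Its levels were −6.05, −4.95 and −5.26 in the cold mice and −4.62, −5.17 and −4.84 at room temperature, and the groups overlapped. The change was −0.55 ± 0.286 (95% interval −1.21 to 0.12; limma, adjusted p = 0.228), and −0.23 without mouse 1. miR-142-5p was a dim signal. Of its 2 probes, the one with the larger change (−1.04) was well above background on 1 of 4 cold arrays and on all 4 room temperature arrays, and the other (−0.05) on 2 of 4 cold arrays. Both probes were kept through the room temperature arrays alone. In mouse 1 the first of them lay at the floor of the scale on 1 array, so the size of its difference, and that of the 5p arm, is not settled by these arrays. For the 3p arm, the 2 probes had changes of −0.56 and −0.41 and were well above background on all 8 arrays.

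**Figure D2:**
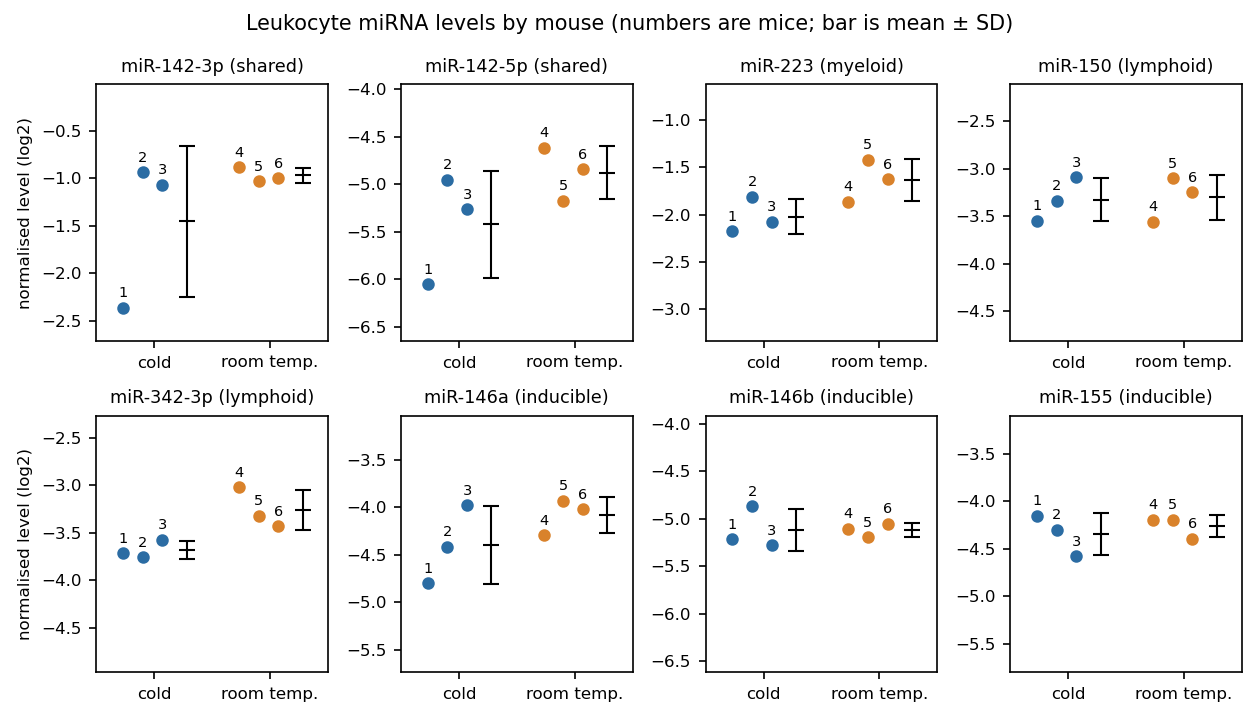
Normalised log2 level of each leukocyte miRNA (y axis) in cold mice 1, 2 and 3 and room temperature mice 4, 5 and 6, a point per mouse, with the mean and SD of the 3 mice beside the points. Every panel spans the same height of log2 units. Mouse 1 stands below the rest for miR-142-3p (−2.37) and miR-142-5p (−6.05), and miR-342-3p is the one panel in which the groups do not overlap.

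miR-223, the myeloid miRNA, had levels of −2.18, −1.81 and −2.08 in the cold mice and −1.87, −1.42 and −1.63 at room temperature. Cold mouse 2 was above room temperature mouse 4, and the other cold mice were below all room temperature mice. The change was −0.38 ± 0.165 (95% interval −0.77 to −0.0013; limma, adjusted p = 0.151), which did not pass. Both of its probes were well above background on all 8 arrays, with changes of −0.28 and −0.49. Its sign did not rest on 1 mouse, since leaving out each mouse in turn gave −0.50 to −0.28. Without mouse 1 the change was −0.31 with an unadjusted limma p of 0.13, against 0.0494 with all mice. The call depended on the scaling: with arrays scaled by the percentile over all miRNA probes the change was −0.46 with a limma adjusted p of 0.0447.

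The 2 miRNAs grouped as lymphoid had unlike values. miR-150 had levels of −3.55, −3.34 and −3.09 in the cold mice and −3.56, −3.10 and −3.24 at room temperature. The groups covered nearly the same range, and the change was −0.02 ± 0.177 (95% interval −0.44 to 0.39; limma, adjusted p = 0.92). Of its 2 probes, the one measured on all 8 arrays had a change of 0.12, and the other, well above background on 3 of 4 cold arrays, −0.16. A change of up to 0.39 in either direction was within the interval, so these arrays do not show that miR-150 was the same in both groups. Its passenger strand, miR-150*, was well above background on 0 arrays.

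miR-342-3p, encoded within Evl and found in lymphocytes, had levels of −3.72, −3.76 and −3.58 in the cold mice and −3.02, −3.32 and −3.43 at room temperature. The lowest room temperature mouse was above the highest cold mouse. The change was −0.43 ± 0.148 (95% interval −0.77 to −0.08; limma, adjusted p = 0.0931), and −0.51 to −0.31 with each mouse left out in turn. The brighter of its 2 probes gave 57.2, 77.6 and 87.0 units before scaling in the cold mice and 172, 127.8 and 176.6 units at room temperature. After scaling, the difference was −0.68 for that probe and −0.17 for the dimmer one. Tested as single probes, a comparison added after the data were seen, the brighter probe passed (limma, adjusted p = 0.0252) and the dimmer one did not (adjusted p = 0.482), where 24.3% of all 329 kept probes passed. Of the 14 kept probes for leukocyte miRNAs it was the only one that did. The other arm, miR-342-5p, was well above background on 0 arrays. Its brightest probe gave 3.72 ± 0.517 units in the cold and 5.23 ± 0.784 at room temperature (SD, n = 3), with no interpretable fold.

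Of the inducible miRNAs, miR-146a had levels of −4.80, −4.41 and −3.98 in the cold mice and −4.29, −3.93 and −4.02 at room temperature. Cold mouse 3 lay among the room temperature mice and cold mice 1 and 2 below them, with mouse 1 lowest. The change was −0.32 ± 0.219 (95% interval −0.82 to 0.19; limma, adjusted p = 0.356), and −0.11 without mouse 1. Its 2 probes had changes of −0.20 and −0.43, and neither was well above background on all 8 arrays. miR-146b, its close relative in sequence, had levels of −5.21, −4.87 and −5.28 in the cold mice and −5.10, −5.19 and −5.05 at room temperature. The change was −0.0036 ± 0.148 (95% interval −0.35 to 0.34; limma, adjusted p = 0.981). For miR-146b the 2 arrays of 1 mouse differed more than the mice did, with an SD of 0.336 between technical arrays and 0.163 between mice of a group.

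The 2 probes for miR-146b did not have like signals. The kept probe was well above background on all 8 arrays, with 23.1 ± 5.81 units in the cold and 31.6 ± 9.77 at room temperature (SD, n = 3). The other gave 0.0606 ± 0.796 units in the cold and 7.71 ± 1.88 at room temperature, was well above background on 1 array and did not enter the level. The passenger strand miR-146b* was well above background on 0 arrays.

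miR-155 had levels of −4.15, −4.30 and −4.58 in the cold mice and −4.19, −4.19 and −4.39 at room temperature. Cold mouse 1, the lowest mouse for 4 of the other leukocyte miRNAs, was the highest here, but its 2 arrays gave −3.98 and −4.32. As for miR-146b, the SD between technical arrays (0.208) was above that between mice of a group (0.175). The change was −0.08 ± 0.152 (95% interval −0.44 to 0.27; limma, adjusted p = 0.741). The level came from 1 probe, measured on all 8 arrays. The second probe was well above background on 2 of 4 cold arrays and 2 of 4 room temperature arrays and was left out. Its difference had the other sign, at 0.58, with 2 arrays at the floor of the scale.

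Cold mouse 1 had the lowest level of the 6 mice for 4 of the 8 leukocyte miRNAs, miR-142-3p, miR-142-5p, miR-223 and miR-146a. Over all measured miRNAs, mouse 1 was the lowest of the 6 for 27.5%. Among the cold mice alone it was the lowest for 5 of the 8, and for 49.2% of all measured miRNAs. Without mouse 1 the median change of the 8 moved from −0.35 to −0.15, and 6 of the 8 changes were negative. The spread between the 2 arrays of a mouse had an SD of 0.404 for miR-142-3p, against 0.562 between mice of a group. Over all measured miRNAs the medians of these SDs were 0.165 and 0.192.

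**Figure D3:**
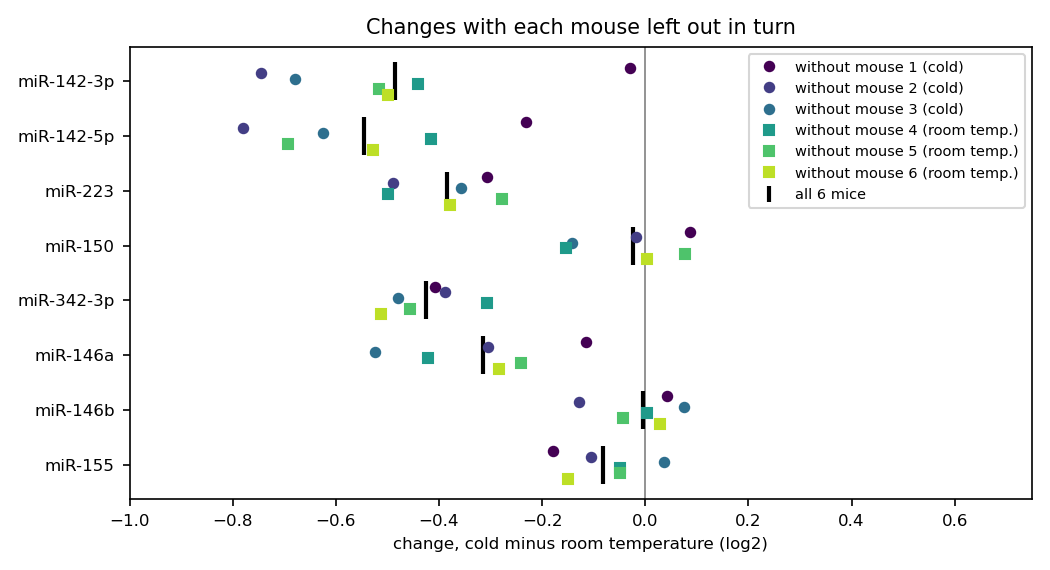
Change of each leukocyte miRNA, cold minus room temperature in log2 units (x axis), with all 6 mice (black bar) and with each mouse left out (circles for cold mice, squares for room temperature mice). Without mouse 1, miR-142-3p moves from −0.48 to −0.03 and miR-146a from −0.32 to −0.11, whereas miR-342-3p stays between −0.51 and −0.31.

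In ratios between leukocyte miRNAs on the same array the scaling cancels, except for a probe at the floor, as 1 probe of miR-142-5p was on 1 array of mouse 1. For 8 ratios the difference of cold minus room temperature was tested over mice with an exact permutation test. The ratio of miR-223 to miR-150, myeloid to lymphoid, was 1.37, 1.52 and 1.01 on the log2 scale in the cold mice and 1.69, 1.67 and 1.62 at room temperature. All cold mice lay below all room temperature mice, by 0.36 on average (exact permutation test, 2-sided, p = 0.1, the smallest possible; 0.8 after Benjamini-Hochberg adjustment over 8 ratios). The groups did not overlap in 4 of 4 alternatives that used all mice (normexp, the brightest probe, total signal and the first arrays), and over these and each mouse left out the difference lay between −0.61 and −0.22. Such a separation is common on these arrays. It held for 42.5% of all 17766 pairs of measured miRNAs, and for 4 of the 28 pairs among leukocyte miRNAs.

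The other lymphoid pairing, miR-342-3p to miR-150, differed by −0.40 (exact permutation test, p = 0.3), with room temperature mouse 4 at 0.53 and the other room temperature mice at −0.23 and −0.19. Without mouse 4 this difference was −0.15, and with the brightest probe of each miRNA it was −0.79 with no overlap. Against miR-142-3p, miR-223 differed by 0.10 (exact permutation test, p = 0.9), miR-150 by 0.46 (p = 0.4), miR-146a by 0.17 (p = 0.7) and miR-155 by 0.40 (p = 0.9). In each of these 4 ratios mouse 1, which had the lowest miR-142-3p, was the highest mouse. Without mouse 1 the differences were −0.28 for miR-223, 0.12 for miR-150, −0.085 for miR-146a and −0.15 for miR-155, so that 3 of the 4 changed sign. The 2 arms of miR-142 had a log2 ratio of 5p to 3p of −3.68, −4.01 and −4.20 in the cold mice and −3.73, −4.14 and −3.84 at room temperature, a difference of −0.06 (exact permutation test, p = 0.8), and 0.51 with the brightest probe of each arm. The ratio of miR-146b to miR-146a differed by 0.31 (exact permutation test, p = 0.4). No ratio passed after adjustment, and 3 mice against 3 cannot reach 0.05 in this test.

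**Figure D4:**
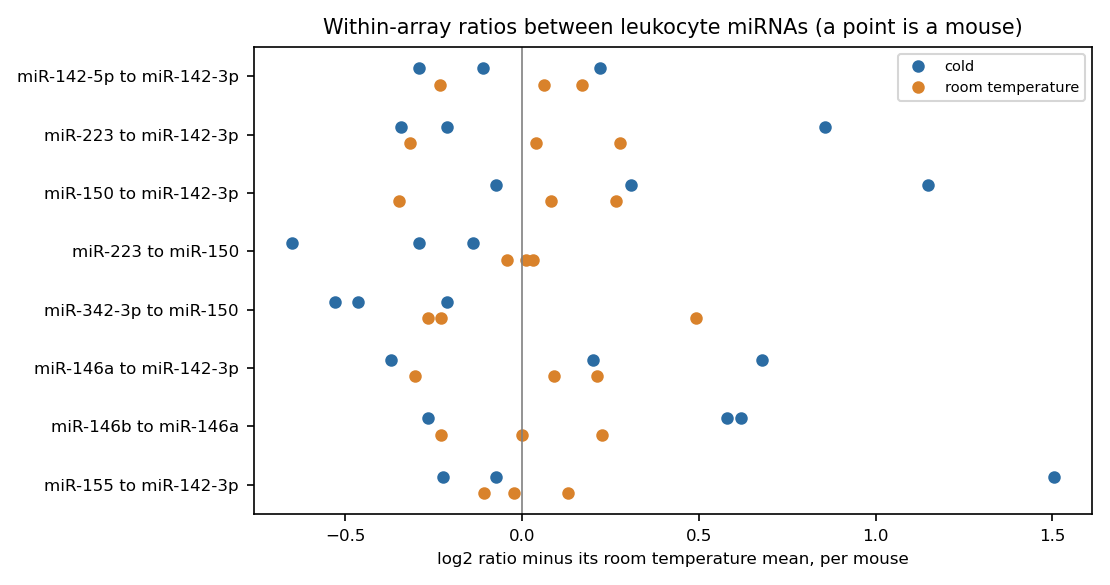
Log2 ratio of pairs of leukocyte miRNAs in each mouse, less the ratio's room temperature mean (x axis); a point is a mouse. The ratio of miR-223 to miR-150 is the one in which the groups do not overlap, and in the ratios to miR-142-3p of miR-223, miR-150, miR-146a and miR-155 the highest point is mouse 1.

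Whether the leukocyte miRNAs varied together as 1 block cannot be settled with 6 mice. Of their 28 pairs, 20 had a positive Pearson r, the median r was 0.40 and the range −0.63 to 0.93. The median over all pairs of measured miRNAs was 0.133. After each group's mean was taken away, the median was 0.165 for the leukocyte pairs and 0.183 for all pairs. The correlations depended on the scaling, since with unscaled intensities the median was 0.88 and the lowest r 0.73. Without scaling, a mouse's values move with its arrays' percentile, which ran from 627 units in mouse 1 to 1408 in mouse 6. None of the 28 passed Benjamini-Hochberg adjustment, and 2 had an exact permutation p under 0.05 before it.

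The closest pair was miR-142-3p and miR-142-5p, the arms of 1 hairpin, with r = 0.93 over 6 mice (exact permutation test, p = 0.00417, adjusted 0.117) and Spearman's rho = 0.94 (p = 0.0167, adjusted 0.467). Without mice 1 and 4, the farthest from the median, r was 0.76. The low value of miR-142-5p in mouse 1 includes the probe at the floor. The other was miR-150 and miR-146a, with r = 0.83 (exact permutation test, p = 0.0458, adjusted 0.642) and rho = 0.77 (p = 0.103, adjusted 0.819), and r = 0.87 without mice 4 and 1. The deviations of this pair from the group means correlated at 0.93.

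By kind, the 2 myeloid and shared pairs had r of 0.60 and 0.54, and the 4 lymphoid and shared pairs lay between 0.13 and 0.62. Without mice 1 and 4 the myeloid and shared pairs had r of 0.16 and 0.31, and the 4 lymphoid and shared pairs lay between −0.96 and −0.16. In the remaining mice miR-142-3p ran only from −1.07 to −0.94, against an SD of 0.404 between its technical arrays. The r values of miR-142-3p therefore cannot show whether its pairs hold. miR-142-5p ran from −5.26 to −4.84 in these mice. The r values of its pairs rest on few mice and were not tested. miR-223 correlated with miR-150 at 0.47 and with miR-342-3p at 0.42. As deviations from the group means these were 0.64 and −0.63. The 2 lymphoid miRNAs had an r of −0.12 with each other, and miR-146a and miR-146b an r of −0.17. miR-155 was the member with the most negative values, −0.63 with miR-150 and −0.56 with miR-146a. Its SD between technical arrays (0.208) was above that between mice of a group (0.175). For miR-150 these SDs were close, at 0.224 and 0.233. With 6 mice none of these correlations could be told from 0 by the adjusted permutation tests.

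**Figure D5:**
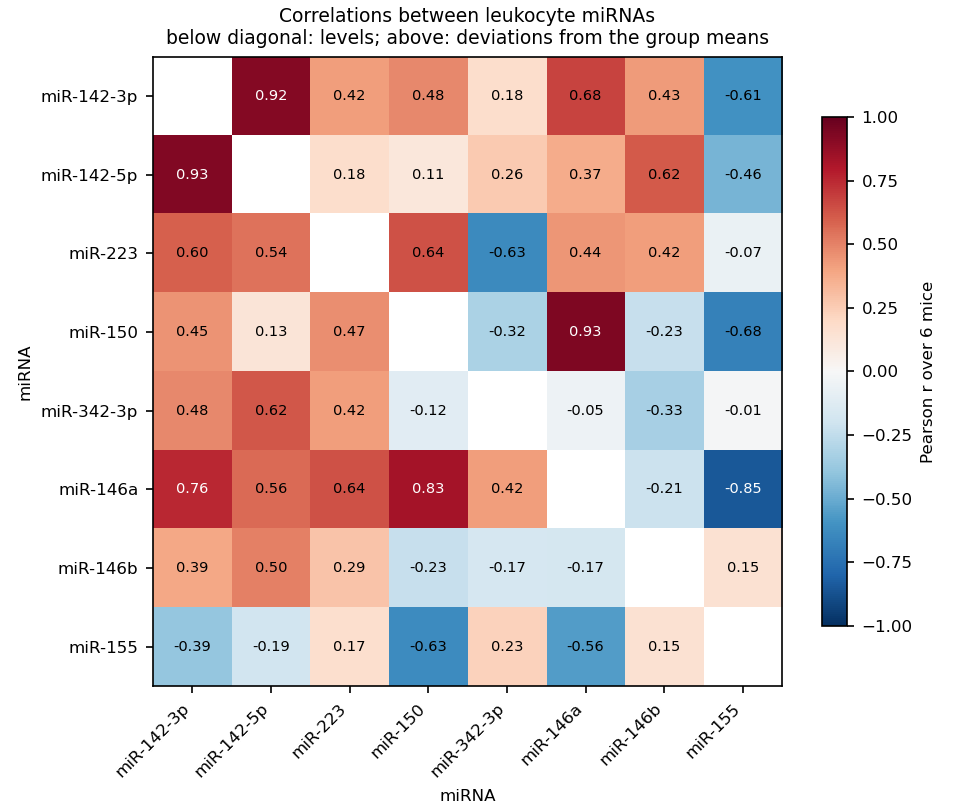
Pearson r over 6 mice for the 28 pairs of leukocyte miRNAs, of normalised log2 levels below the diagonal and of deviations from the group means above it (colour scale −1 to 1). The arms of miR-142 (0.93 and 0.92) and miR-150 with miR-146a (0.83 and 0.93) are the highest pairs, and miR-155 with miR-150 is the lowest of the levels (−0.63).

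The levels of 9 measured miRNAs outside the 8 are given because they followed a leukocyte miRNA most closely. Among the 181 other measured miRNAs, those nearest to miR-142-3p over the 6 mice were miR-143 of smooth muscle and stroma (r = 0.95), the endothelial miR-126-3p (0.90) and miR-29a (0.87). miR-143 had, like miR-142-3p, its lowest level in mouse 1, at −3.45 against −1.91 and −1.72 in the other cold mice. For miR-223 they were miR-340-3p (0.98), miR-22* (0.95) and miR-100 (0.93), and for miR-150 miR-139-5p (0.97), miR-497 (0.96) and miR-34a (0.95). Of these 9, miR-29a and miR-34a were also on the list of other immune cell miRNAs below. Within the 8, the highest r was 0.93 for miR-142-3p, with its 5p arm, and 0.64 for miR-223 and 0.83 for miR-150, both with miR-146a. These are the highest of many values and are given as a description.

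Of 26 other miRNAs known in immune cells, 20 were measured, 1 rose past the threshold (8.47% of all measured miRNAs did) and 0 fell, and the median change was −0.037. An unadjusted limma p under 0.05 was found for 5 of the 20, against the 32.8% of all. The one that rose was miR-132, which CREB and inflammatory signals induce in several cell types. Its levels were −5.19, −4.88 and −4.98 in the cold mice and −6.16, −5.99 and −6.19 at room temperature, with no overlap, a change of 1.10 ± 0.138 (limma, adjusted p = 0.00362). It was well above background on 7 arrays, so its probe was kept through the arrays of 1 group alone. The room temperature levels lay near the floor of the scale, and the size of the change is not settled. The next smallest p-values were those of miR-92a, of the miR-17/92 cluster, at 0.53 (limma, adjusted p = 0.0545) and of miR-30e at −0.47 (adjusted p = 0.0549), which did not pass. miR-147, miR-511, miR-187, miR-17, miR-326 and miR-31 were not measured, and of these miR-147, miR-511, miR-187 and miR-31 were well above background on 0 arrays.

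Blood in the tissue would bring both red cells and leukocytes. The erythroid miRNAs miR-451, miR-144 and miR-486 had changes of 0.64 (limma, adjusted p = 0.058), 0.83 (adjusted p = 0.0525) and 0.46 (adjusted p = 0.308). None passed, though for miR-451 and miR-144 every cold mouse was above every room temperature mouse, as for 20.1% of all measured miRNAs. miR-126-3p and miR-126-5p, of endothelial cells, had changes of −0.15 and −0.29 (limma, adjusted p = 0.531 and 0.525). Whether the erythroid and leukocyte values were related was not tested.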

How the data were processed

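The authors deposited 1 scanner file per array, with spot intensity in units on a linear scale after background subtraction (Agilent Feature Extraction 10.7.3.1, per the file headers; 9.5.3.1, per the submitters' processing notes). The deposited value table held the same intensities. Whether a spot was well above background is the software's flag.

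Control and outlier spots (2.09% to 2.63% of miRNA spots per array) were left out; no spot was saturated. Each probe's spots were averaged and divided by the 75th percentile, per array, of the 267 probes that all 8 arrays measured well above background. A floor of 0.01 was set before log2. A probe was kept (329 of 1712) if over 0.5 of its spots had that flag on all arrays of either group. Kept probes were averaged per miRNA and per mouse. limma 3.58.1 (lmFit, eBayes; R 4.3.3) tested all 189 miRNAs, with Benjamini-Hochberg adjustment. Ratios and correlations were tested by exact permutation over mice.

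The labels name each sample as a mouse, so the spread is that between animals. The members, lists and tests were chosen with earlier results of these data known. Named in addition to the 8 were other products of their hairpins, the miRNAs of the 2 lists (other immune cell miRNAs; blood and vessels) that passed or had the 3 smallest p-values, and the 3 miRNAs nearest to miR-142-3p, miR-223 and miR-150 by Pearson r. Cell type marker miRNAs were given as counts or changes, and miR-199a-5p was named beside miR-199a-3p. The alternatives were other scalings, background, probe summaries, filters, floor, use of technical arrays and variance models, and leaving out each mouse; normexp used the median signal in place of the mean. Single-probe tests and scaling to the control probes named dmr were added after the data were seen.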

Additional observations from a re-analysis of the deposited data

How the results depend on the processing

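No leukocyte miRNA passed the threshold in the main analysis or in the alternatives tried, except these. miR-223 passed with the percentile over all miRNA probes (−0.46, adjusted p = 0.0447), 1 miRNA. miR-342-3p passed as its brightest probe (−0.68, adjusted p = 0.0221) and as 1 of its probes tested singly. Both passed with scaling to the dmr controls, which makes 2 (−0.70, adjusted p = 0.0312, and −0.74, adjusted p = 0.0291). Over all alternatives the adjusted p ranged from 0.0312 to 0.426 for miR-223 and from 0.0221 to 0.712 for miR-342-3p. The median change of the 8 (−0.35) was −0.79 without scaling, −0.67 with the dmr controls, −0.14 with the brightest probe, 0.12 with normexp, and −0.42 to −0.15 with a mouse left out. The median of all miRNAs moved to −0.46 without scaling, −0.34 with the dmr controls and 0.207 with normexp. Relative to it the leukocyte median was −0.33 in the main analysis, without scaling and with the dmr controls. These could hardly differ, since scaling shifts all miRNAs of an array nearly alike. In settings that could move it, the relative median was −0.34 with total signal and −0.29 with quantile normalisation. It was −0.18 with the brightest probe, −0.17 without mouse 1 and −0.086 with normexp.

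Signs turned for miR-142-5p (0.14) and miR-146a (0.10) with normexp. miR-150 was positive with quantile normalisation (0.017), normexp (0.16), the brightest probe (0.12), total signal (0.041) and probes measured on all 8 arrays (0.12). miR-146b was positive with normexp (0.28) and the first array of each mouse (0.053), and miR-155 with normexp (0.19), total signal (0.13), no filter (0.25) and the first arrays (0.013). With a mouse left out the ranges were −0.15 to 0.088 for miR-150, −0.13 to 0.075 for miR-146b and −0.18 to 0.036 for miR-155. The cause was not tested.

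The count over all 189 miRNAs (29) was 13 without scaling (0 higher, 13 lower), 6 with normexp, 5 of 566 with no filter, 16 of 158 with probes on all 8 arrays, 80 of 329 as single probes, and 8 to 33 with a mouse left out. It was 8 without mouse 6, 11 without mouse 2, 13 without mouse 5 and 14 without mouse 3. The split of 16 higher and 13 lower became 11 and 17 with the percentile over all probes and 3 and 36 with the dmr controls. Of the 8 ratios, those without overlap (1) were 4 with the brightest probe, 3 with total signal, 2 with the first arrays and 1 to 2 with a mouse left out. Correlations past adjustment (0) were 15 without scaling. Probes detected on all 8 arrays (9 of 16) were 14 when any spot counted. miR-142-5p and miR-146a had 0 probes well above background on all 8 arrays, and so no value under that filter. No paired analysis was possible because the mouse numbers are not shared between the groups.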
